A study of Mus musculus with 4 samples.

Results

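The genes of glycolysis, of lactate and pyruvate handling and of the pentose phosphate pathway were read in 4 sorted populations of mouse CD4+ T cells. A list of 33 genes was chosen by function. The platform annotation gave 30 of them at least 1 probe set of their own, that is, a set mapped to exactly 1 gene. Those genes had 67 probe sets, out of 34958 such probe sets for 18194 genes on the array. No probe set of this kind was listed for Gpi1, Eno1 or G6pdx, whose expression was not analysed here. Gapdh was read from the 3 control probe sets that the array carries for it, since its other sets were shared with pseudogenes.

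Spleens and lymph nodes were taken from 25 male B6/129 F2 mice, aged 5 to 8 weeks, and their cells pooled. All carried green fluorescent protein (GFP) knocked into Foxp3, the gene of the regulatory T (Treg) cell transcription factor. After depletion of cells bearing CD8, B220, CD11b, NK1.1 or DX5, CD4+ cells were sorted on GFP, which marks Foxp3, and on CD25, a chain of the receptor for IL-2. Sorting gave CD25hi and CD25lo Foxp3+ cells, and CD25+ and CD25- Foxp3- cells, an order kept below. No animal was treated, and each population was read on 1 Affymetrix whole-genome mouse array after 2 cycles of RNA amplification. With 1 array a population there is no spread between replicates, so differences are given by their size and carry no test.

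Glycolysis splits glucose into pyruvate in the cytosol. Glucose enters through transporters of the Slc2a family and is trapped by hexokinases, and pyruvate is then reduced to lactate and exported, or burned in mitochondria. The pentose phosphate pathway branches off after the hexokinase step and yields NADPH and the ribose of nucleotides. Many steps have isoform genes that differ in regulation and tissue. T cells at rest rely largely on oxidation, and activated T cells raise glucose uptake and lactate output.

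Median intensities of the arrays lay between 15.03 and 15.63. An intensity is the brightness of a probe set on a linear scale. It compares populations for 1 probe set and does not rank genes against each other. Foxp3 read 1308 and 1117 in the Foxp3+ pair of arrays, against 16.8 and 17.6 in the Foxp3- pair, and Il2ra, which encodes CD25, read 1562, 288, 283 and 22.3 in the order of populations given above. Below, the 2 values of a pair are CD25hi then CD25lo for Foxp3+, and CD25+ then CD25- for Foxp3-. Of 10 CD4 T cell markers 9 were measured and all 9 read at least 497 in every array. Their summed intensity was 44633 and 47977 in the Foxp3+ pair, against 31189 and 45055 in the Foxp3- pair. The sum was thus lowest in the CD25+ Foxp3- array. Between the Foxp3- arrays, CD25+ over CD25-, these markers had a log2 median of -0.53, and none lay 2-fold apart. The part of this lower sum in the other readings was not tested. Values under 10.1 were set to that floor, and a probe set counted as measured if its highest value reached 32.5. By this rule 56 of the 67 probe sets and 28 of the 30 genes were measured. Pdk2, a kinase that switches off pyruvate dehydrogenase, read between 7.09 and 14.9 and was not measured. Slc16a3, the lactate exporter MCT4, read 14.2 and 16.1 in the Foxp3+ pair and 7.22 and 7.14 in the Foxp3- pair, under the limit. Of the 28 measured genes 25 reached the limit in every array. The other 3, Hk3, Aldoc and Eno2, passed through the arrays where they are high, so a difference was built into their being measured.

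Cells with CD25 but no Foxp3, the CD25+ Foxp3- population, had the highest reading for 16 of the 28 genes, and CD25- Foxp3- cells had the lowest for 14. Among all 9623 measured genes these shares were 30.1% and 28.4%. Within the 25 genes above the limit in every array, 15 were highest in CD25+ Foxp3- cells and 13 lowest in CD25- Foxp3- cells, against 29.3% and 27.3% of 8494 genes. The median log2 difference over the 28 genes was 0.44 for CD25+ Foxp3- over CD25- Foxp3- cells. It was 0.29 for CD25hi Foxp3+ and 0.24 for CD25lo Foxp3+ over the same CD25- Foxp3- array, which the 3 comparisons share. Over all genes these medians were -0.01, 0.02 and -0.05. In bulk samples of this kind, a larger share of cells that express a gene cannot be told apart from more RNA per cell.

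The highest and the lowest array lay at least 2-fold apart for 13 of the 28 genes, with a median range of 1.80-fold, against 32.6% and 1.68-fold over all genes. Above the limit in every array, 10 of 25 members and 27.5% of genes had such a range. The genes with wide ranges peaked in different populations.

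**Figure D1:**
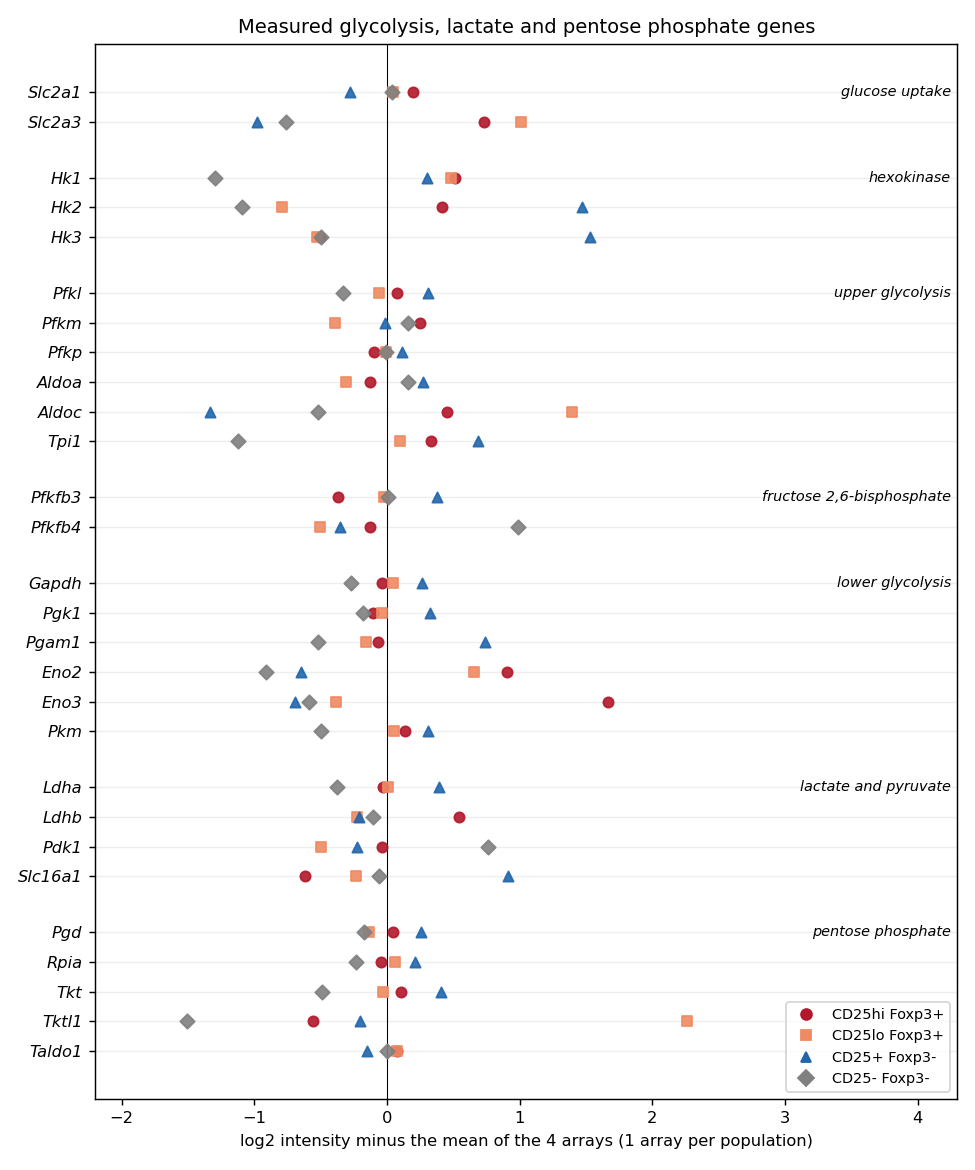
Log2 intensity of each measured gene in the 4 arrays, minus the gene's mean over the arrays (x axis); each symbol is 1 array and genes are grouped by step. Blue triangles (CD25+ Foxp3-) lie rightmost for 16 genes. For Slc2a3, Aldoc and Eno2 both Foxp3+ symbols lie to the right of both Foxp3- symbols by at least 1.5-fold. Tktl1 stands far right in CD25lo Foxp3+ cells alone.

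Counted at 2-fold, CD25hi Foxp3+ over CD25- Foxp3- cells had 6 of the 28 genes higher, against 7.09% of all measured genes, and 1 lower, against 3.74%. Of CD25lo Foxp3+ over CD25- Foxp3- cells, 6 were higher (9.09% of all genes) and 2 lower (6.88%). Of CD25+ Foxp3- over CD25- Foxp3- cells, 6 were higher (12.1%) and 1 lower (6.43%). Among the 25 genes above the limit in every array, the higher counts were 5, 4 and 5, against 5.02%, 7.06% and 9.30% of genes so filtered. Hk1 and Tpi1 were the genes higher in all 3 comparisons, and Pfkfb4 was lower in all 3.

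Between CD25hi and CD25lo Foxp3+ cells, 2 genes were higher (3.21%), Eno3 and Hk2, and 1 was lower (2.50%), Tktl1. CD25hi Foxp3+ over CD25+ Foxp3- cells had 4 higher (4.82%) and 3 lower (6.84%), and CD25lo Foxp3+ over CD25+ Foxp3- cells had 4 higher (5.16%) and 3 lower (9.04%). Among the 25 genes above the limit in every array, both of these comparisons had 2 higher and 2 lower, against 4.14% and 4.58% of genes so filtered for CD25hi and 4.37% and 6.92% for CD25lo. Of the 28, the same 3 genes, Hk2, Hk3 and Slc16a1, were lower in both Foxp3+ arrays than in the CD25+ Foxp3- array, which the 2 comparisons share.

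**Figure D2:**
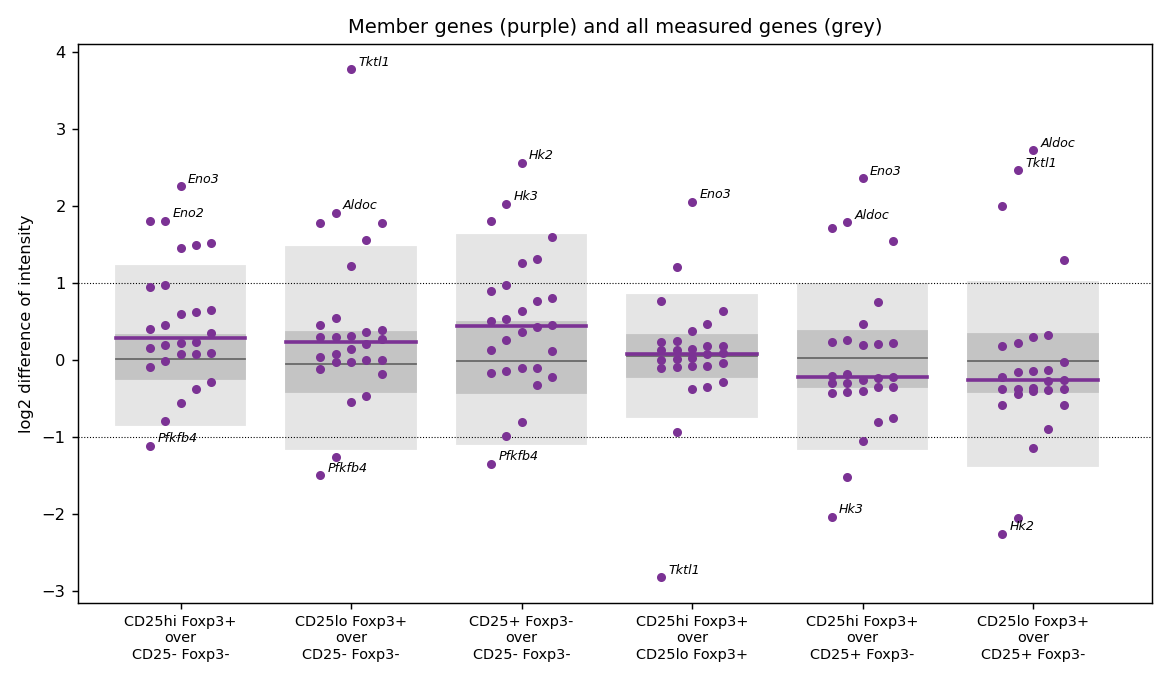
Log2 difference of intensity in the 6 comparisons of 2 arrays; purple points are the 28 measured members with their median as a purple bar, and grey boxes span the 5th to 95th (light) and 25th to 75th (dark) percentile of all measured genes with their median. Member medians are 0.29, 0.24 and 0.44 in the 3 comparisons with CD25- Foxp3- cells, and dotted lines mark a 2-fold difference.

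The arrays can be paired 2 against 2 by Foxp3, by CD25 or by neither. A gene counts when the lowest array of one pair is at least 1.5-fold above the highest of the other. By Foxp3, 3 genes were higher in the Foxp3+ pair, Slc2a3, Aldoc and Eno2, against 2.80% of all genes, and none was lower, against 1.93%. Aldoc and Eno2 are among the genes measured only through the arrays where they are high, and without such genes the count was 1 of 25, Slc2a3, against 2.23%. The CD25 pairing sets CD25hi Foxp3+ and CD25+ Foxp3- cells against CD25lo Foxp3+ and CD25- Foxp3- cells. It follows the sort gates within each Foxp3 class, and Il2ra itself did not pass it, with 283 in CD25+ Foxp3- against 288 in CD25lo Foxp3+ cells. By this pairing Hk2 alone was higher (1.10% of all genes) and no member was lower (0.187%). The third pairing, which follows neither marker, separated no member in either direction, against 1.45% and 1.60% of all genes.

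At the entry of glucose, the 2 transporters differed in pattern. Slc2a3, the high-affinity transporter GLUT3, read 2433 and 2964 in the CD25hi and CD25lo Foxp3+ arrays, against 744 and 866 in the CD25+ and CD25- Foxp3- arrays. Both Foxp3+ arrays lay above both Foxp3- arrays, with 2.81-fold between the nearest. A further measured set of Slc2a3 gave 2168, 2625, 583 and 746 in the same order, and its remaining 2 sets read at most 26.2, with the same split. Slc2a1, the transporter GLUT1 that T cells raise on activation, read 947, 854, 681 and 852 in that order. Its 3 sets had their lowest reading in CD25+ Foxp3- cells and ranges of 1.37-fold, 1.39-fold and 1.64-fold. The log2 difference of CD25lo Foxp3+ over CD25- Foxp3- cells was 1.77 larger for Slc2a3 than for Slc2a1.

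The 3 hexokinases, which trap glucose by phosphorylating it, each had another pattern. Hk1, the hexokinase of most tissues, read 1239.6, 1213 and 1073 in CD25hi Foxp3+, CD25lo Foxp3+ and CD25+ Foxp3- cells, against 354 in CD25- Foxp3- cells. The 3 populations with Foxp3 or CD25 were alike, and between 3.03-fold and 3.50-fold above the fourth. Its other set gave 676 and 689 in the Foxp3+ pair and 484 in the CD25+ Foxp3- array, against 48.2 in the CD25- Foxp3- array, so the direction was the same but the log2 differences were 3.81, 3.84 and 3.33 in place of 1.81, 1.78 and 1.60. The sets of Hk1 thus disagreed in size by up to 2.06 on the log2 scale, the widest disagreement among members. Both were counted as Hk1, and which transcripts each reads was not analysed here.

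Hk2, the isoform of muscle and of growing cells, was higher in the population with more CD25 within each Foxp3 class. Its 1 set read 108 in the CD25hi and 46.8 in the CD25lo Foxp3+ array, and 224 in the CD25+ and 37.9 in the CD25- Foxp3- array. CD25hi was 2.31-fold above CD25lo within the Foxp3+ cells, and CD25+ was 5.90-fold above CD25- within the Foxp3- cells. Across the classes it did not follow the Il2ra reading, being higher in CD25+ Foxp3- than in either Foxp3+ population. Hk3, known from myeloid cells, read 56.3 in CD25+ Foxp3- cells and between 13.5 and 13.8 in the other arrays, little above the floor. Its second set read 52.7 in CD25+ Foxp3- cells and at most 15.8 elsewhere, at least 5.21-fold above CD25- Foxp3- cells.

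The listed myeloid and neutrophil markers were set beside Hk3. Of 14 markers 10 were measured, and their summed intensity was 261 and 572 in the Foxp3+ pair, 908 in the CD25+ and 1015 in the CD25- Foxp3- array. The sum did not follow Hk3, being as high in CD25- Foxp3- cells. In CD25+ over CD25- Foxp3- cells 2 markers were at least 2-fold higher, Fcer1g at 294 against 21.5 and Adgre1 at 45.4 against 21.1, and 4 were lower. Over all measured genes 12.1% were higher and 6.43% lower. Itgam, Cd14, Lcn2 and Itgax were not measured. The part of such cells in the Hk3 reading was not tested.

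**Figure D3:**
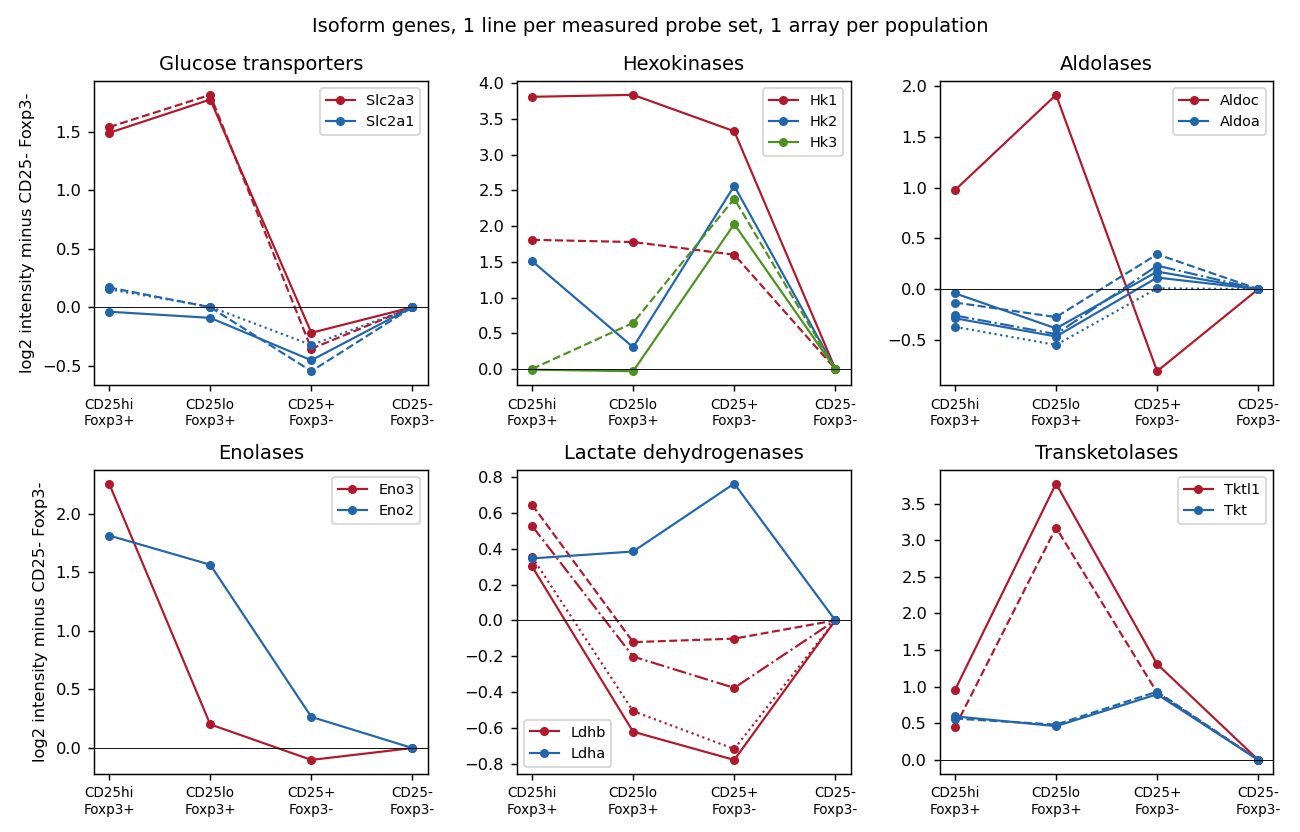
Log2 intensity minus that of CD25- Foxp3- cells (y axis) across the 4 populations (x axis), with 1 line per measured probe set, coloured by gene. The 2 measured sets of Slc2a3, of Hk1, of Hk3 and of Tktl1 keep the shape of their gene, those of Hk1 with different sizes, and the partner isoforms Slc2a1, Aldoa, Ldha and Tkt run differently.

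In the upper part of glycolysis, phosphofructokinase is the committed step and has 3 subunit genes. Pfkl (liver type) read 973 and 886 in the Foxp3+ pair and 1146 in the CD25+ Foxp3- array, against 735 in the CD25- Foxp3- array, and a second set had the same order of high and low arrays. The remaining, dimmer Pfkl set ran the other way, at 140.4 and 111 in the Foxp3+ pair and 84.7 in the CD25+ Foxp3- array, against 177 in the CD25- Foxp3- array. Pfkl was the 1 gene among 15 with several measured sets whose sets lay at least 1.2-fold apart in opposite directions. Pfkm (muscle type) read between 179.9 and 279.5, and Pfkp (platelet type) between 2736 and 3173, with a range of 1.16-fold. Neither gene reached 2-fold in any comparison.

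Aldolase splits the phosphorylated hexose. Aldoa, the main isoform outside liver and brain, had 5 sets with ranges from 1.47-fold to 1.60-fold, each highest in CD25+ Foxp3- and lowest in CD25lo Foxp3+ cells. Aldoc, the brain isoform, read 90.7 and 174 in the CD25hi and CD25lo Foxp3+ arrays, against 26.3 and 46.1 in the CD25+ and CD25- Foxp3- arrays. The nearest arrays of the pairs lay 1.97-fold apart, and CD25lo Foxp3+ was 6.60-fold above CD25+ Foxp3- cells. The second Aldoc set read at most 10.5. The log2 difference of CD25lo Foxp3+ over CD25+ Foxp3- cells was 3.30 larger for Aldoc than for Aldoa.

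Tpi1, triosephosphate isomerase, which balances the triose phosphates, was low in CD25- Foxp3- cells alone. It read 1784 and 1514 in the Foxp3+ pair and 2276 in the CD25+ Foxp3- array, against 649.8 in the CD25- Foxp3- array, or 2.75-fold, 2.33-fold and 3.50-fold. The 3 sets of Tpi1 agreed, with ranges of 3.50-fold, 3.53-fold and 4.01-fold and the same order of arrays. The bifunctional enzymes that set fructose 2,6-bisphosphate, the activator of phosphofructokinase, ran in other ways. Pfkfb4 read 45.8 and 35.2 in the Foxp3+ pair and 39.1 in the CD25+ Foxp3- array, against 99.4 in the CD25- Foxp3- array, so that CD25- Foxp3- cells were between 2.17-fold and 2.82-fold above the others. Pfkfb3 read 327 and 416 in the Foxp3+ pair and 549 in the CD25+ Foxp3- array, against 425 in the CD25- Foxp3- array, and stayed within 2-fold.

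The lower steps, which yield ATP, were mostly highest in CD25+ Foxp3- and lowest in CD25- Foxp3- cells. Gapdh, glyceraldehyde phosphate dehydrogenase, read 9710.4 and 10275 in the Foxp3+ pair and 11983 in the CD25+ Foxp3- array, against 8282 in the CD25- Foxp3- array, on its 3' control set. Pgk1, phosphoglycerate kinase, read 5511 and 5803 in the Foxp3+ pair and 7435 in the CD25+ Foxp3- array, against 5240.2 in the CD25- Foxp3- array. Pkm, pyruvate kinase of muscle and growing cells, read 3901 and 3686 in the Foxp3+ pair and 4410.1 in the CD25+ Foxp3- array, against 2528 in the CD25- Foxp3- array. On these sets all 3 had the same highest and the same lowest array, and none reached 2-fold. Another Pgk1 set was lowest in CD25lo Foxp3+ cells, at 1721 and 1655 in the Foxp3+ pair, against 2097 and 1838 in the Foxp3- pair. A bright set that Gapdh shares with pseudogenes lacked this order and was not counted as Gapdh. It read 9098 and 9028 in the Foxp3+ pair, against 8734 and 8675 in the Foxp3- pair. The 5' control set of Gapdh did reach 2-fold. Pgam1, phosphoglycerate mutase, did: it read 4797 in CD25+ Foxp3- cells, against 2004 in CD25- Foxp3- cells, or 2.39-fold, with 2737 and 2576 in the Foxp3+ arrays. The Pkm set was read as 1 gene, and its splice forms M1 and M2 were not told apart.

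The enolases measured were the tissue isoforms. Eno3, the muscle enolase, stood out in CD25hi Foxp3+ cells, at 1973, with 475 in the CD25lo Foxp3+ array and 385 and 413 in the CD25+ and CD25- Foxp3- arrays. The 3 other arrays lay close together and 4.15-fold, 5.12-fold and 4.78-fold below. Eno2, the neuronal enolase, read 64.3 and 54.1 in the Foxp3+ pair, against 22.0 and 18.3 in the Foxp3- pair, which were under the limit, with 2.46-fold between the nearest. Each of these genes had 1 probe set, so no second set checks them.

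The control sets of Gapdh lie at the 3' end, the middle and the 5' end of the transcript, and so also show how far amplified RNA reached. The 3' over 5' ratio was 2.40, 2.33 and 2.28 in CD25hi Foxp3+, CD25lo Foxp3+ and CD25+ Foxp3- cells, against 3.21 in CD25- Foxp3- cells. CD25+ Foxp3- cells were 1.45-fold above CD25- Foxp3- cells on the 3' set and 2.04-fold on the 5' set. For Actb, beta-actin, the ratio was 1.94 and 2.21 in the Foxp3+ pair and 2.65 in the CD25+ Foxp3- array, against 2.29 in the CD25- Foxp3- array, so CD25- Foxp3- cells did not stand apart. The part of RNA quality in the low readings of CD25- Foxp3- cells was not tested.

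**Figure D4:**
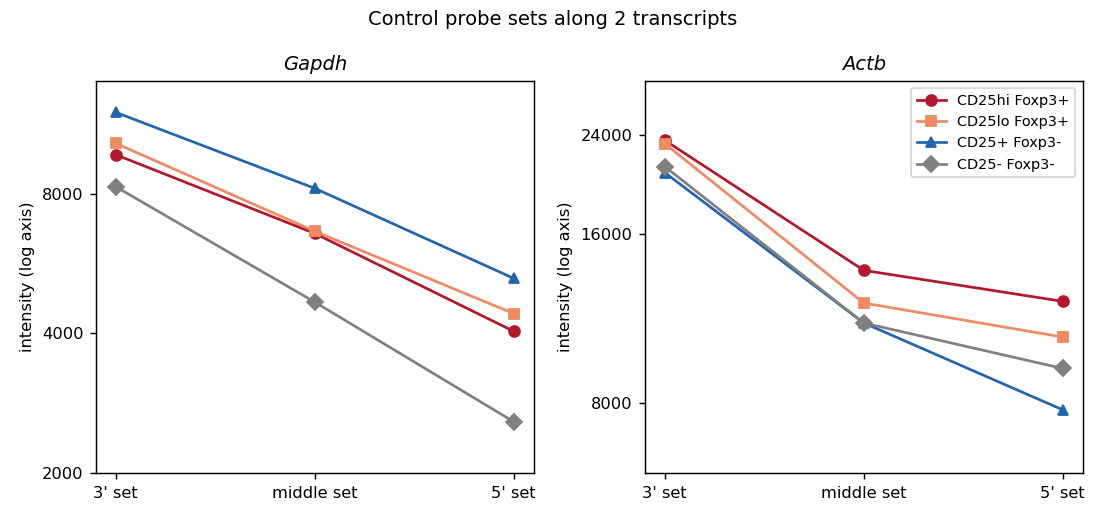
Intensity (log axis) of the control probe sets at the 3' end, middle and 5' end of Gapdh and Actb, with 1 line per array. For Gapdh the CD25- Foxp3- line falls most steeply, with a 3' over 5' ratio of 3.21 against 2.28 to 2.40 in the others, and for Actb the ratios run from 1.94 to 2.65 with CD25+ Foxp3- cells the steepest.

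Lactate dehydrogenase is built from Ldha subunits, which favour lactate formation, and Ldhb subunits, which favour its oxidation. Ldha read 7257 and 7455 in the Foxp3+ pair and 9699 in the CD25+ Foxp3- array, against 5709 in the CD25- Foxp3- array. It was thus highest in CD25+ Foxp3- cells, by 1.70-fold over CD25- Foxp3- cells. Ldhb read 1742 in CD25hi Foxp3+ cells, against 1023 in the CD25lo Foxp3+ array and 1037 and 1113 in the Foxp3- pair. All 4 Ldhb sets were highest in CD25hi Foxp3+ cells, between 1.66-fold and 1.90-fold above CD25lo Foxp3+ cells. The Ldhb sets other than the one read were lowest in CD25+ Foxp3- cells. They gave 484, 590.0 and 569.6 there, against 831, 971 and 739.9 in CD25- Foxp3- cells. The log2 difference of CD25hi Foxp3+ over CD25+ Foxp3- cells was 1.17 smaller for Ldha than for Ldhb, a value of -1.17 for Ldha minus Ldhb.

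Slc16a1, the lactate and pyruvate transporter MCT1, read 1014 in CD25+ Foxp3- cells, against 352 and 459 in the Foxp3+ pair and 518 in the CD25- Foxp3- array. CD25+ Foxp3- cells were 2.88-fold, 2.21-fold and 1.96-fold above these. Pdk1 is, like Pdk2, a kinase that switches off pyruvate dehydrogenase. It read 783 and 568 in the Foxp3+ pair and 685 in the CD25+ Foxp3- array, against 1356 in the CD25- Foxp3- array. Another Pdk1 set agreed, with 141 and 105 in the Foxp3+ pair and 141 in the CD25+ Foxp3- array, against 344 in the CD25- Foxp3- array. The remaining measured set gave 504 and 532 in the Foxp3+ pair and 900.2 in the CD25+ Foxp3- array, against 845 in the CD25- Foxp3- array, so that the low reading of CD25+ Foxp3- cells rests on which set is taken.

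In the pentose phosphate pathway the widest difference was that of Tktl1, a transketolase-like gene whose enzyme activity is debated. It read 476 in CD25lo Foxp3+ cells, against 67.4 in the CD25hi Foxp3+ array and 86.2 and 34.8 in the Foxp3- pair. CD25lo Foxp3+ cells were 7.06-fold above CD25hi Foxp3+ and 13.7-fold above CD25- Foxp3- cells. A second set gave 24.8, 164, 34.4 and 18.2 in the order of populations, or 6.63-fold between the Foxp3+ arrays, and the remaining set read at most 10.8. With each gene read from its brightest measured set, this was the widest log2 difference of any member, at 3.77, that of CD25lo Foxp3+ over CD25- Foxp3- cells.

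The other measured genes of the branch stayed within 2-fold on every measured set. Tkt, transketolase, read 7117 and 6488 in the Foxp3+ pair and 8770.2 in the CD25+ Foxp3- array, against 4713 in the CD25- Foxp3- array, and its second measured set gave 709 and 669.9 in the Foxp3+ pair and 915 in the CD25+ Foxp3- array, against 479.5 in the CD25- Foxp3- array. The ranges were 1.86-fold and 1.91-fold. Pgd, phosphogluconate dehydrogenase, a source of NADPH, had 4 sets with ranges between 1.23-fold and 1.39-fold, all highest in CD25+ Foxp3- cells. Rpia, ribose phosphate isomerase, read 797 in its highest array, that of CD25+ Foxp3- cells, and 584 in its lowest, that of CD25- Foxp3- cells. Taldo1, transaldolase, read 2569 and 2558 in the Foxp3+ pair, against 2194 and 2429 in the Foxp3- pair, with a range of 1.17-fold.

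Promoter windows of RefSeq (build GRCm38.p6), from 250 bases before to 50 after a transcription start, are given for 2 sets of genes that contrast. The first set, Hk2, Hk3 and Slc16a1, was at least 2-fold higher in CD25+ Foxp3- than in both Foxp3+ arrays. The second, Aldoc and Eno2, was higher in both Foxp3+ arrays, as was Slc2a3. The letters ACGTG, a form of the core of the element bound by hypoxia-inducible factors, were searched on both strands. They are in capitals, where CACGT is ACGTG on the other strand. Other forms of the core, such as GCGTG, were not searched. Sequences run 5' to 3' along the gene's strand, and Aldoc has 2 windows.
Hk2 promoter, chr6:82774405-82774704, minus strand: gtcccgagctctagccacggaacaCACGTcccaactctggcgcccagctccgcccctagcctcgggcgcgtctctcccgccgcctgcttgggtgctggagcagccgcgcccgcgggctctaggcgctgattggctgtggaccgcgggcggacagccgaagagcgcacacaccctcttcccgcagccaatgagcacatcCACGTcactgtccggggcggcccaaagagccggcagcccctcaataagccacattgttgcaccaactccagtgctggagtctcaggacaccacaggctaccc
Hk3 promoter, chr13:55021336-55021635, minus strand: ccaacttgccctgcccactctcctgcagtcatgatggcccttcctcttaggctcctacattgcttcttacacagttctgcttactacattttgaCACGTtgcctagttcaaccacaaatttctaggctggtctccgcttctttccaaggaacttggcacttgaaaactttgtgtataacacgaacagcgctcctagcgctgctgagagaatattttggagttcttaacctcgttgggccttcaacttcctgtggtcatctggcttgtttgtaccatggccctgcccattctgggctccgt
Slc16a1 promoter, chr3:104638414-104638713, plus strand: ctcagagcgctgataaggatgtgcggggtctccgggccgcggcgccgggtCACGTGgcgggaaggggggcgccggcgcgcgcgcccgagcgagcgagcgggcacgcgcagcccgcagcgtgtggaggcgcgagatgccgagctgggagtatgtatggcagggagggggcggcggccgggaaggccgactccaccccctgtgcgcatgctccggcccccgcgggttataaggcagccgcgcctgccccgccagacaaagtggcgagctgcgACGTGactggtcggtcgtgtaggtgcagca
Aldoc promoter, chr11:78322823-78323122, plus strand: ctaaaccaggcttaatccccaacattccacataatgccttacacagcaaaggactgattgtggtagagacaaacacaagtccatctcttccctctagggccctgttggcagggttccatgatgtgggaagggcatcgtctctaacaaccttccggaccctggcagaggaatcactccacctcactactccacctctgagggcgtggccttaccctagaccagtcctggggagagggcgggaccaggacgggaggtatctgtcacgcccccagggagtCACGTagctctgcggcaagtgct
Aldoc promoter, chr11:78323948-78324247, plus strand: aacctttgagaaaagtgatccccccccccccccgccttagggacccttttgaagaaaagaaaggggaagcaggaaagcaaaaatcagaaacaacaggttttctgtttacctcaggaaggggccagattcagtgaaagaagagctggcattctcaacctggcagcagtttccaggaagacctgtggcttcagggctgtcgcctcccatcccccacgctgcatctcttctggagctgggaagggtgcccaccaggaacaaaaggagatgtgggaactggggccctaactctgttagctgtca
Eno2 promoter, chr6:124769624-124769923, minus strand: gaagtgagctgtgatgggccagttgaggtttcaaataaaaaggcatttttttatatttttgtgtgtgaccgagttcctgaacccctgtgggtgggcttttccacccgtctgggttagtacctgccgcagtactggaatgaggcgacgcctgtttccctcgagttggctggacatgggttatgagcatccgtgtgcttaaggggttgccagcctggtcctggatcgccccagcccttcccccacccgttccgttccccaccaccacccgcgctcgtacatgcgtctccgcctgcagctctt
ACGTG was present in all 3 windows of the first set. It was present in 1 of the 3 windows of the second, that is, in 1 of the Aldoc windows and not in that of Eno2. Slc2a3 was not searched. Both sets were picked from the readings above, and Hk3, Aldoc and Eno2 were measured only through the arrays where they are high. The contrast between the sets was not tested. Slc16a1 had 3 matches, a pair of which overlap in CACGTG, the E-box letters bound by Myc among other factors. Over the 32 listed genes with a window, measured or not, 20 of 47 windows held ACGTG (42.6%), against 19.6% of all 32851 windows, and 5 held CACGTG (10.6%), against 7.15%. Member windows were also richer in G and C, with a median GC share 7.33 percentage points above that of all windows. The part of base composition in the shares was not tested. A match in a window is a description of its letters and does not show that a factor binds there.

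Neighbouring genes were read from lists of the same pathways. Of 39 other genes of glycolysis and pyruvate use 19 were measured. In CD25+ over CD25- Foxp3- cells 3 reached 2-fold upward, near the 12.1% of all measured genes, and none downward, and the median log2 difference was 0.15. Upward were Dld, a subunit of pyruvate dehydrogenase and related complexes, at 2473 against 724, Mpc1, of the mitochondrial pyruvate carrier, at 551 against 220.3, and Dlat, another subunit of pyruvate dehydrogenase, at 486 against 213. By Foxp3, Gpd2, the mitochondrial glycerol phosphate dehydrogenase, was lower, at 157 and 114 in the Foxp3+ pair against 397 and 459 in the Foxp3- pair, and no gene was higher. Over all measured genes 1.93% were lower by this pairing and 2.80% higher. Of 9 other pentose phosphate genes 8 were measured and none reached 2-fold in any of the 6 comparisons.

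Of 22 genes of the tricarboxylic acid cycle 20 were measured, and in CD25+ over CD25- Foxp3- cells 3 were at least 2-fold higher, again near the 12.1% of all genes, and none was lower, with a median of 0.11. They were Idh3a, a subunit of isocitrate dehydrogenase, at 1887 against 504, Aco1, the cytosolic aconitase, at 598 against 255, and Fh1, fumarase, at 2969 against 1306. No gene of this list passed the Foxp3 or the CD25 pairing.

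Among 17 measured regulators of such genes, Hif1a, the inducible subunit of hypoxia-inducible factor, read 3695 and 8184 in the Foxp3+ pair and 5752 in the CD25+ Foxp3- array, against 1376 in the CD25- Foxp3- array. It was thus highest in CD25lo Foxp3+ cells, unlike most members. Epas1, the related subunit, was lower in the Foxp3+ pair, at 26.6 and 47.8, against 320.0 and 315 in the Foxp3- pair. Myc, a factor that drives glycolysis genes in activated T cells, passed the CD25 pairing, at 828 and 802 in CD25hi Foxp3+ and CD25+ Foxp3- cells against 204 and 466 in CD25lo Foxp3+ and CD25- Foxp3- cells. Myc and Hk2 had the same pair of highest arrays, though the order within the pair differed. A link between Myc and Hk2 was not tested. Of 24 measured cell cycle genes, 3 were also higher by the CD25 pairing and none lower, against 1.10% and 0.187% of all genes. No other measured regulator passed either pairing, against 1.93% of all genes lower by Foxp3 and 1.10% higher by CD25.

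Irf4, a factor induced by T cell receptor signals, read 912 and 900.1 in the Foxp3+ pair and 1579 in the CD25+ Foxp3- array, against 249.8 in the CD25- Foxp3- array. Txnip, which curbs glucose uptake, was low in CD25+ Foxp3- cells, at 1281, with 3483 and 3091 in the Foxp3+ arrays and 3639 in CD25- Foxp3- cells. Of 12 measured hypoxia response genes outside glycolysis, P4ha1, a collagen prolyl hydroxylase, was higher in the Foxp3+ pair, at 1248 and 1147, against 378 and 686 in the Foxp3- pair. P4ha1 alone of this list passed the Foxp3 pairing, in which 2.80% of all genes were higher. Bhlhe40, a transcriptional repressor, read 481 and 555 in the Foxp3+ pair and 805 in the CD25+ Foxp3- array, against 109 in the CD25- Foxp3- array. The median of the hypoxia list was 0.22 and 0.19 for the Foxp3+ arrays and -0.40 for CD25+ Foxp3- cells, each over CD25- Foxp3- cells.

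Cell cycle genes, as a sum, had the same highest and lowest array as most lower steps of glycolysis. Of 25 genes 24 were measured, and their summed intensity was 37966 and 35912 in the Foxp3+ pair and 63404 in the CD25+ Foxp3- array, against 20576 in the CD25- Foxp3- array. In CD25+ over CD25- Foxp3- cells 21 were at least 2-fold higher, against 12.1% of all genes, and none lower, against 6.43%. In CD25hi and CD25lo Foxp3+ over CD25- Foxp3- cells, 18 and 14 were higher, against 7.09% and 9.09%, and none was lower. The sum weighs bright genes most, and some genes of the list, Mki67 among them, were highest in CD25lo Foxp3+ cells. The share of dividing cells in the differences of the metabolic genes was not tested. Markers of other cells also differed, with summed intensities of 1309.7 and 2029.8 in the Foxp3+ pair against 6338 and 2887 in the Foxp3- pair for 8 of 11 B cell markers. In the same order they were 987, 1077, 2229 and 2454 for 9 of 11 CD8 T and NK cell markers, and 176, 461, 1637 and 883 for 4 of 12 red cell and platelet markers. The last sum peaked through Car2 alone, at 1285 in CD25+ Foxp3- against 261 in CD25- Foxp3- cells, while Alas2, Klf1 and Car1 were lower there, at 48.5, 46.3 and 257 against 99.1, 107 and 416 in CD25- Foxp3- cells. Cd79a and Pax5 of B cells, Klrb1c and Klre1 of NK cells and the globin genes had no measured set. The part of such cells in the member readings was not tested.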

How the data were processed

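Per the labels, RNA of each sorted population was amplified in vitro in 2 cycles and hybridised to 1 array. What the authors deposited is an intensity for each probe set, linear and positive. Their summarisation, background correction and normalization are not given in the sources used here. Groups were taken from the sample titles, 1 array each. Column medians lay within 10%, so the deposited scale was kept.

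Of 45101 probe sets, 34958 had 1 gene, 932 several and 9211 none listed, and 13 of the 64 control sets had 1 gene and were kept. Values were floored at the 40th percentile (10.1), a set was measured if its highest value reached the 60th (32.5), and a gene was read from its measured set of highest mean log2 intensity. A fold against a floored value is a lower bound. Folds of 2 and gaps of 1.5 were counted, over all 9623 measured genes and over members, with no test. The counting was tested on simulated data. Python 3.11.15, pandas 2.3.3 and numpy 2.4.6 were used.

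The members and lists were chosen with earlier results of these data known. All members are named or counted. A gene of the other lists (pathway, regulator, hypoxia, tricarboxylic acid cycle, cell cycle and cell markers) is named if it passes the Foxp3 or CD25 pairing or lies 2-fold apart in CD25+ over CD25- Foxp3- cells, up to 6 a list, with cell cycle genes and markers given as counts and sums. Fcer1g, Adgre1, Mki67 and the measured red cell markers are named beside their count or sum, and Foxp3 and Il2ra as the genes of the sort. Alternatives changed the floor, the filter, the reading of a gene, the scale, the sets used and the fold. The number of arrays limits the precision.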

Additional observations from a re-analysis of the deposited data

Results flagged for a closer look

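The difference between the population with more CD25 and that with less ran in opposite directions, each by at least 1.5-fold, within Foxp3+ and within Foxp3- cells for 1 of the 28 measured genes. For Tktl1 the log2 difference of CD25hi over CD25lo was -2.82 among Foxp3+ cells, and that of CD25+ over CD25- was 1.31 among Foxp3- cells. With 1 array a population the difference between these values was not tested.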

How the results depend on the processing

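No paired analysis was possible because each population has 1 array. Of 39 member differences of at least 2-fold, recomputed 308 times under 8 alternatives, none changed sign and 1 fell under 2-fold: Tktl1 in CD25+ over CD25- Foxp3- cells had a log2 difference of 0.92 without sets ending in _x_at or _s_at. Without those sets Slc2a3 and Aldoa had no measured set, which left 26 member genes. Leaving out control sets, chosen after seeing the data, removed Gapdh. Of 210 counts and medians recomputed, 12 counts changed by more than 1.5 times and no median by as much as 0.13, the largest shift being 0.09. A further 8 counts changed by less. Without _x_at and _s_at sets the higher counts became 5 in each comparison with CD25- Foxp3- cells, 3 in each comparison of Foxp3+ with CD25+ Foxp3- cells and 2 in the Foxp3 pairing. The Foxp3 pairing also had 2 at a gap of 2-fold, and CD25hi Foxp3+ over CD25+ Foxp3- cells had 5 higher at a fold of 1.5. Under quantile normalization and under centring on the median of measured genes, the genes at least 2-fold lower became 2 in CD25+ over CD25- Foxp3- cells and 2 in CD25hi over CD25lo Foxp3+ cells, each 1 as reported. At a fold of 1.5, counts over CD25- Foxp3- cells became 11 higher and 2 lower for CD25hi Foxp3+ cells (14.6% and 9.21% of all genes), and 11 higher and 3 lower for CD25+ Foxp3- cells (22.3% and 17.8%). At the same fold, CD25hi over CD25lo Foxp3+ cells had 4 higher and 2 lower (11.0% and 8.08%), and 5 genes were lower in each Foxp3+ array than in CD25+ Foxp3- cells (15.5% for CD25hi and 18.8% for CD25lo). The medians kept their signs under all alternatives run. Dim readings near the floor, those of Hk3, Eno2 and Aldoc among them, limit what their folds can show.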
